A study of Mus musculus with 6 samples.

Results

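The 10 genes described here mark the junctions, the surface and the secretions of blood vessel endothelium. They were followed in mouse libraries labelled whole embryo, from wild type samples and from knockouts of the receptor gene Lphn2. These libraries also held abundant transcripts of genes of the maternal decidua, given below. The choice was made by symbol, with earlier results of these data known. Cdh5, Pecam1, Cldn5, Esam and Icam2 were taken as proteins of cell junctions, Emcn, Plvap, Robo4 and Ramp2 as other surface proteins, and Egfl7 as a secreted protein. All 10 had a row among the 24421 symbols of each library, and all 10 passed the filter on low counts that left 13848 genes for testing. The libraries came from samples labelled whole embryo, strain C57BL/6N, at embryonic day 9.5. The 3 wild type samples carry the genotype label wild type, and the other 3 are homozygous knockouts of Lphn2, named Lphn2-homo KO and here called knockout. Lphn2, whose current symbol is Adgrl2, encodes latrophilin-2, a receptor of the adhesion class. The labels do not say how the allele was made, whether a sample is 1 embryo, or from which litters the embryos came.

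Endothelial cells line all vessels and are held together by adherens junctions, built on VE-cadherin, and by tight junctions, in which claudin-5 limits the passage of small molecules. PECAM-1, ESAM and ICAM-2 sit at or near the same contacts and also serve the passage of leukocytes. Around mid-gestation the primitive vessels of the embryo, the yolk sac and the maternal decidua are all growing and remodelling, so endothelial transcripts in a library can come from any of these tissues. In a bulk sample, fewer cells of a type and less RNA per cell cannot be told apart.

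The promoters of these genes are shown for those members with a RefSeq entry (build GRCm38.p6, which is mm10) whose knockout values all lay above the wild type values, so that members with a similar difference can be compared letter by letter. Entries matched 4 of the 10 members, Emcn, Egfl7, Cldn5 and Robo4, with 6 start sites in all. Each sequence runs 5′ to 3′ on the plus strand from 250 bases before the start site up to the first annotated exon base: Emcn at chr3:137340828-137341066, the first Egfl7 start at chr2:26580833-26581055 and Cldn5 at chr16:18776597-18776846. Capitals mark the letters AGGAAG or the reverse complement CTTCCT, a core bound by ETS factors, the family that includes the main regulators of endothelial genes.
Emcn: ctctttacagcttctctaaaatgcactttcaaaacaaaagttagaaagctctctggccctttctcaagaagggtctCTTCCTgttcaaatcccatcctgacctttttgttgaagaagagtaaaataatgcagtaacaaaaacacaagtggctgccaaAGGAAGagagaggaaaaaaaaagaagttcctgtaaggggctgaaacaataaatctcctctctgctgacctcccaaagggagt
Egfl7: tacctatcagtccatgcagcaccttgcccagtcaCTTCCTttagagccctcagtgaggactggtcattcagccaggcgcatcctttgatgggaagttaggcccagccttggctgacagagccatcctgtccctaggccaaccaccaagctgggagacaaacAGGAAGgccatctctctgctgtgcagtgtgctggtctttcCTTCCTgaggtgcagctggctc
Cldn5: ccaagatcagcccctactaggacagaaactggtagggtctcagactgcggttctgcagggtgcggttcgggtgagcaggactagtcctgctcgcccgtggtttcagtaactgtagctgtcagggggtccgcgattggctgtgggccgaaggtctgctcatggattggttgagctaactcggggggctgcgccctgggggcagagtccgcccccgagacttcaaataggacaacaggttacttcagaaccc
Emcn held these letters at bases -174 to -169 and -93 to -88 from its start, and Egfl7 at -216 to -211, -89 to -84 and -49 to -44. Cldn5 held none in its window. Over the full 250 bases before each start, 4 of the 6 member windows held the letters, the others being a second Egfl7 start and Robo4 (-49 to -44), against 29.5% of 32851 windows of the same length. These windows belong to Egfl7, Emcn and Robo4 only, and a further Egfl7 start held none. The Robo4 match lay among the 75 bases nearest its start site, which begin at an annotated exon. None of the 6 held the other ETS core searched, CGGAAG, or the GATA letters AGATAA or the FOX letters TGTTTAC on either strand, which 13.6%, 9.99% and 3.17% of all windows held. A match describes the letters in the window and not a bound site.

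All 10 members had a higher mean in the knockout libraries, and for 6 of them (Cdh5, Cldn5, Icam2, Emcn, Ramp2 and Egfl7) every knockout value lay above every wild type value. Of all tested genes 12.1% had such groups with the knockout above and 9.39% with it below, where no member lay. No member passed the threshold of an adjusted p of 0.05 over all genes (edgeR quasi-likelihood test, Benjamini-Hochberg, smallest adjusted p = 0.166), against 0% of tested genes called higher and 0.0505% called lower. The same 6 members had an unadjusted p under 0.05, against 8.68% of tested genes on the higher side and, with no member, 6.86% on the lower side. The median log2 fold change of the members, knockout over wild type, was 0.71, where the median over all tested genes was -0.04. Since the members were chosen with earlier results of these data known, the values set beside those of all genes are descriptions. Members together took 0.204 to 0.274% of the counts of wild type libraries and 0.333 to 0.394% of those of knockout libraries, most of them from Egfl7 and Pecam1. Levels below are TMM-normalised CPM, the count of a gene scaled to a common library size, given in the order of replicates 1, 2 and 3, with mean ± SD of n = 3 per group. Fold changes are log2 values with their standard error (SE).

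**Figure D1:**
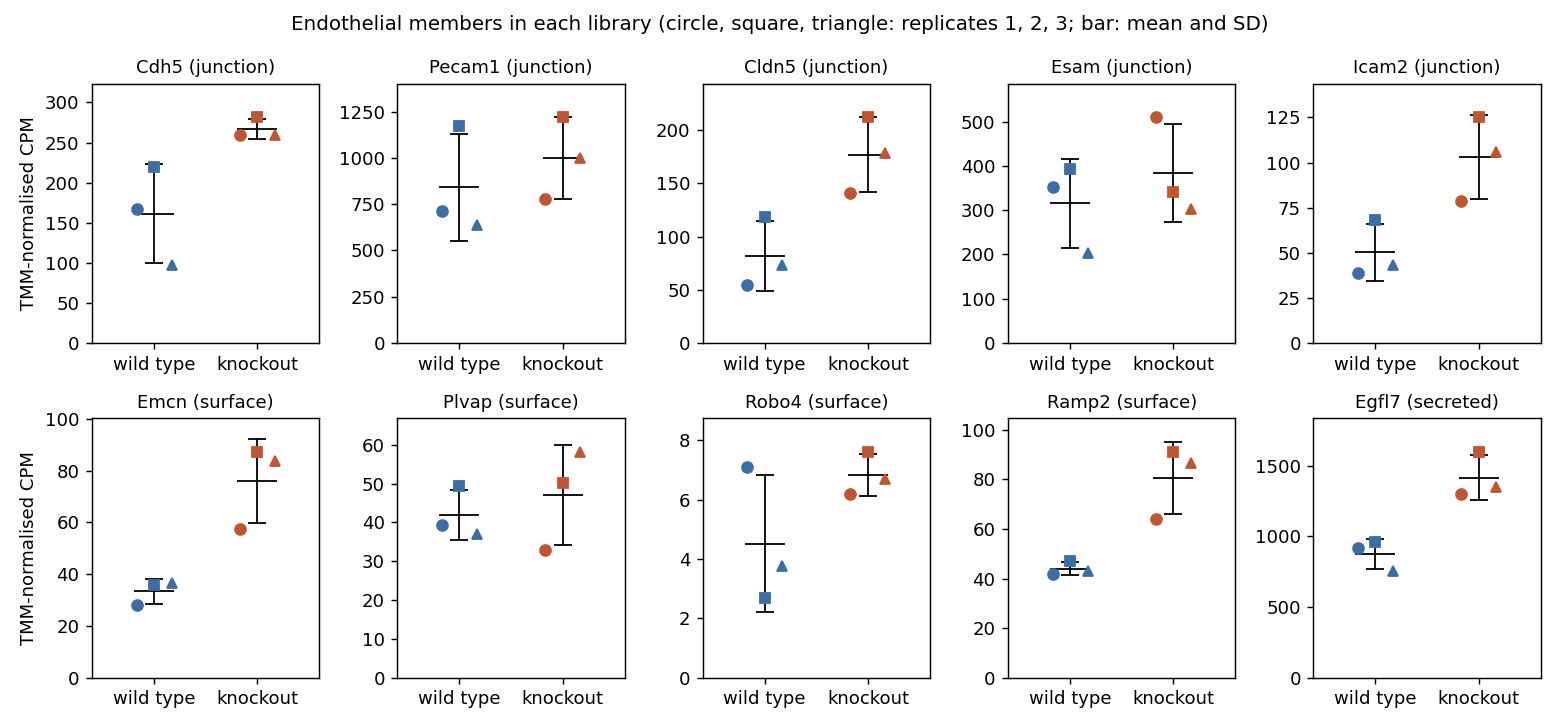
Level of each of the 10 members in each library, in TMM-normalised CPM on linear axes that start at 0, with wild type in blue and knockout in orange, points for libraries, and bars for mean and SD (n = 3). For Cdh5, Cldn5, Icam2, Emcn, Ramp2 and Egfl7 all knockout points lie above all wild type points, and for Pecam1, Esam, Plvap and Robo4 the groups overlap.

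Total counts were 18352150 to 36213611 for the wild type group and 14476809 to 23887717 for the knockout group. By correlation across genes (r), the libraries did not form 1 cluster per genotype. Knockout replicates 2 and 3 were the closest pair across genes (r = 0.978), and wild type replicate 3 lay apart as well, with r = 0.943 and 0.91 to wild type replicates 1 and 2 and 0.915 to knockout replicate 1. In turn, knockout replicate 1 had a higher r with wild type replicates 1 and 2 (0.966 and 0.961) than with knockout replicates 2 and 3 (0.935 and 0.937). Chi-square over degrees of freedom, computed on counts, ordered them otherwise. Knockout replicate 1 differed less from knockout replicates 2 and 3 (103 and 109) than from wild type replicates 1 and 2 (143 and 216). Genes are not independent replicates, so these are descriptions. For Adgrl2 the values were 10.9, 7.56 and 15.96 CPM (wild type) and 5.49, 1.67 and 2.78 CPM (knockout). Where the deletion lies is not labelled. A 3′ tag assay may still read a partly deleted gene, and the labels are not checked by it. The labelled tissue was checked against its markers. Of 10 neural tube genes 4 were high enough to be tested, of 10 heart muscle genes 5, and of 8 somite genes 4, with 6 neural genes at 0 counts in knockout replicate 2. A list of 12 decidual genes, of the maternal lining, summed to between 19988 and 36207 CPM (wild type) and between 7071 and 12010 CPM (knockout). That sum was mostly Prl8a2, a decidual prolactin family gene, at 20572 ± 7235 and 3171 ± 2041 CPM, and 6 of the 12 genes went the other way. Over the 6 libraries the neural tube genes summed to 10.8 to 434 CPM and the heart muscle genes to 7.80 to 371 CPM. The libraries thus held abundant decidual transcripts that the label whole embryo does not name.

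Cdh5 (build mm10, chromosome 8, 104101625 to 104144511, plus strand) encodes VE-cadherin, the adhesion receptor of endothelial adherens junctions. It stood at 166, 219.98 and 97.6 CPM in wild type and at 259.9, 281 and 259.1 CPM in knockout libraries. The knockout values lay close together, within 0.12 on the log2 scale, while the wild type values spanned 1.17, so the spread is nearly all in wild type. The means were 161 ± 61.3 and 267 ± 12.6 CPM, with a log2 fold change of 0.73 ± 0.29 (SE, adjusted p = 0.298). An antisense gene at its 5′ end, Gm29682, held 3 to 8 counts per library.

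Cldn5 (chromosome 16, 18776847 to 18778262), the main claudin of endothelial tight junctions, stood at 54.1, 118 and 73.7 CPM in wild type and at 141, 212 and 179 CPM in knockout libraries. The groups did not overlap, although wild type replicate 2 came within 0.25 (log2) of knockout replicate 1. The log2 fold change was 1.11 ± 0.31 (adjusted p = 0.194), higher than that of 96.1% of tested genes.

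Icam2 (chromosome 11, 106377656 to 106388075, minus strand), an adhesion molecule of endothelium, leukocytes and platelets, stood at 38.9, 68.2 and 43.2 CPM in wild type and at 78.7, 125 and 105.9 CPM in knockout libraries. As for Cldn5, wild type replicate 2 was the highest of its group and knockout replicate 1 the lowest of its own. Knockout over wild type, the difference was 1.04 ± 0.28 on the log2 scale (adjusted p = 0.183).

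Pecam1 (chromosome 11, 106654217 to 106750628, minus strand) encodes PECAM-1 or CD31, a junctional receptor that platelets and leukocytes also carry. It stood at 711, 1172 and 638 CPM in wild type and at 779, 1219 and 1002 CPM in knockout libraries. Wild type replicate 2 lay above knockout replicates 1 and 3, so the groups overlapped. Its fold change was 0.25 ± 0.29 on the log2 scale (adjusted p = 0.706), and 0.08 to 0.58 with 1 library left out.

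Esam (chromosome 9, 37528078 to 37538319), a tight junction immunoglobulin protein, stood at 353, 393 and 203 CPM in wild type and at 509.9, 341 and 303 CPM in knockout libraries. It was the only member with its highest knockout value in replicate 1, and knockout replicates 2 and 3 lay below wild type replicates 1 and 2. Its fold change was 0.28 ± 0.31 on the log2 scale (adjusted p = 0.692), with 0.02 without knockout replicate 1 and 0.04 without wild type replicate 3. The 5 junction genes thus held both members with a log2 fold change above 1 and members whose groups overlapped.

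Emcn (chromosome 3, 137341067 to 137432185), endomucin, a sialomucin of venous and capillary endothelium, had the highest log2 fold change of the 10. It stood at 27.9, 35.95 and 36.5 CPM in wild type and at 57.3, 87.1 and 83.5 CPM in knockout libraries. The lowest knockout value lay 0.65 (log2) above the highest wild type value, the widest gap among the members. The log2 fold change was 1.18 ± 0.22 (adjusted p = 0.166). Over the alternatives its adjusted p ran from 0.000668 (DESeq2) to 0.9995, and was 0.025 without knockout replicate 1 (edgeR). All 6 Emcn counts were multiples of 2, as were those of Robo4, and why was not tested. Dividing the counts by 2 left both genes on the same side of the threshold.

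Ramp2 (chromosome 11, 101246028 to 101259546) encodes the protein that pairs with the calcitonin receptor-like receptor to form a receptor for adrenomedullin, a peptide needed for vessel integrity. It stood at 42.0, 47.2 and 42.96 CPM in wild type, a span of 0.17 on the log2 scale, and at 64.0, 91.0 and 86.6 CPM in knockout libraries. No wild type value came within 0.44 (log2) of a knockout value. Its fold change was 0.87 ± 0.19 on the log2 scale (adjusted p = 0.166). Over the alternatives the adjusted p ran from 0.00557 (DESeq2) to 0.9995, and was 0.0313 when edgeR was run without knockout replicate 1. The annotated span of Ramp2 holds Vps25 on the same strand, read at 93.7 ± 29.6 CPM (wild type) and 118 ± 26.5 CPM (knockout), with overlapping groups.

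Plvap (chromosome 8, 71497765 to 71511752, minus strand) encodes the protein of the diaphragms of fenestrae and caveolae. It stood at 39.3, 49.4 and 37.1 CPM in wild type and at 32.9, 50.1 and 58.1 CPM in knockout libraries. Knockout replicate 1 was the lowest of all 6 libraries and knockout replicate 3 the highest. The log2 fold change was 0.17 ± 0.25 (adjusted p = 0.768), the smallest of the members, and turned to -0.0047 without knockout replicate 3 and to -0.33 with knockout replicate 1 alone. Its 3′ end overlaps Gtpbp3 on the other strand, which was read at 4.96 ± 0.97 and 5.08 ± 1.49 CPM.

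Robo4 (chromosome 9, 37401897 to 37415115), an endothelial member of the roundabout receptors, was the least read, with 44 to 196 counts per library. It stood at 7.10, 2.68 and 3.76 CPM in wild type and at 6.20, 7.60 and 6.70 CPM in knockout libraries. Wild type replicate 1 lay among the knockout values and the other 2 wild type libraries below them. Its fold change was 0.59 ± 0.41 on the log2 scale (adjusted p = 0.523), with 1.08 without wild type replicate 1 and 0.34 without replicate 2 of that group.

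Egfl7 (chromosome 2, 26580014 to 26593120), a secreted protein of the endothelial matrix whose gene hosts the microRNA miR-126, stood at 918, 960.03 and 759 CPM in wild type and at 1302, 1597 and 1348 CPM in knockout libraries. The groups were 0.44 apart on the log2 scale and each was narrow, with spans of 0.34 and 0.29. The log2 fold change was 0.69 ± 0.18 (adjusted p = 0.183). The rows of Mir126a and Mir126b, the microRNA genes inside it, held 0 counts in all 6 libraries. Agpat2, which overlaps its 3′ end on the other strand, was read at 10.9 ± 3.76 and 9.57 ± 3.07 CPM.

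**Figure D2:**
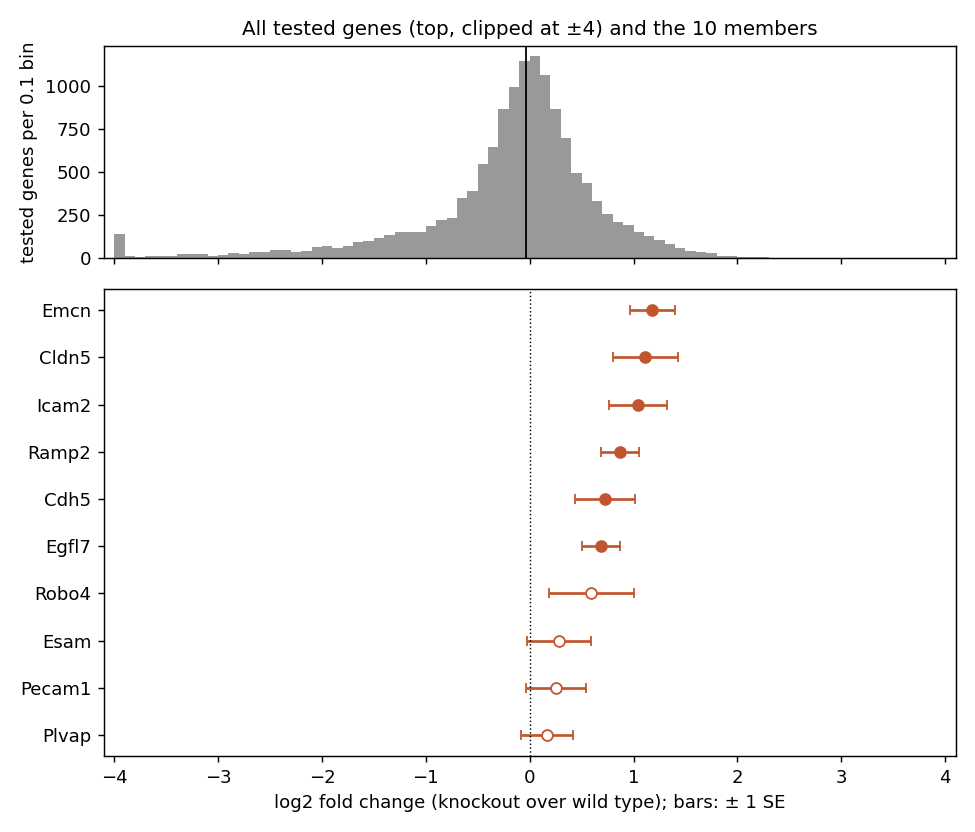
Log2 fold change (knockout over wild type) of all 13848 tested genes as a histogram with a line at their median of -0.04 (top), and of the 10 members with ± 1 SE (bottom). Filled points mark the 6 members whose groups do not overlap. The members run from 0.17 for Plvap to 1.18 for Emcn, all to the right of 0.

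The order of libraries within a group was similar for most members. How many of all tested genes share this order is not given here. Wild type replicate 2 was the highest of its group in 8 of the 10 members, and knockout replicate 2 likewise in 8. Knockout replicate 1 was the lowest of its group in 8. The median log2 difference of the 10 members from the wild type mean was -0.07, 0.31 and -0.17 for wild type and 0.64, 0.88 and 0.73 for knockout, in replicate order. The difference was therefore present in knockout replicate 1 as well as in the closest pair, replicates 2 and 3. Knockout replicate 1 lay closer to wild type replicates 1 and 2 by r across all genes, but not by chi-square. With that library alone against wild type the median was 0.63, and 7 members lay above all wild type values and 1, Plvap, below them. In that comparison 23.2% of genes lay above and 20.5% below. With DESeq2 5 members were called higher (Cldn5, Icam2, Emcn, Ramp2 and Egfl7), against 3.39% of tested genes, and none lower, against 2.79%. Without knockout replicate 1 edgeR called 2 members higher (Emcn and Ramp2), against 1.77%, and none lower, against 3.27%.

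To see whether the members differed in the same proportion, each was divided by Cdh5 within its library. Emcn came to 0.168, 0.163 and 0.374 counts per Cdh5 count in wild type and to 0.22, 0.31 and 0.322 in knockout libraries. Cldn5 came to 0.325, 0.538 and 0.754 in wild type and to 0.542, 0.754 and 0.689 in knockout libraries. Wild type replicate 3, with its low Cdh5, gave the highest ratio of its group for 7 of the 9 genes, and the groups overlapped for both genes. Plvap was the one member with all knockout ratios (0.127, 0.178 and 0.2242) below all wild type ratios (0.236, 0.2244 and 0.379), where 41.8% of tested genes lay below and 0.809% above. The closest of these ratios, 0.2244 and 0.2242, were nearly equal. The difference in log2 ratio was -0.66 for Plvap, -0.52 for Pecam1 and -0.5 for Esam, and ran from -0.11 to 0.37 for the other 6. No difference passed (exact permutation test, two-sided, smallest possible p = 0.1, reached by Plvap, adjusted p = 0.6 over the 9 ratios). The median log2 ratio of all tested genes to Cdh5 was -0.82, knockout minus wild type.

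**Figure D3:**
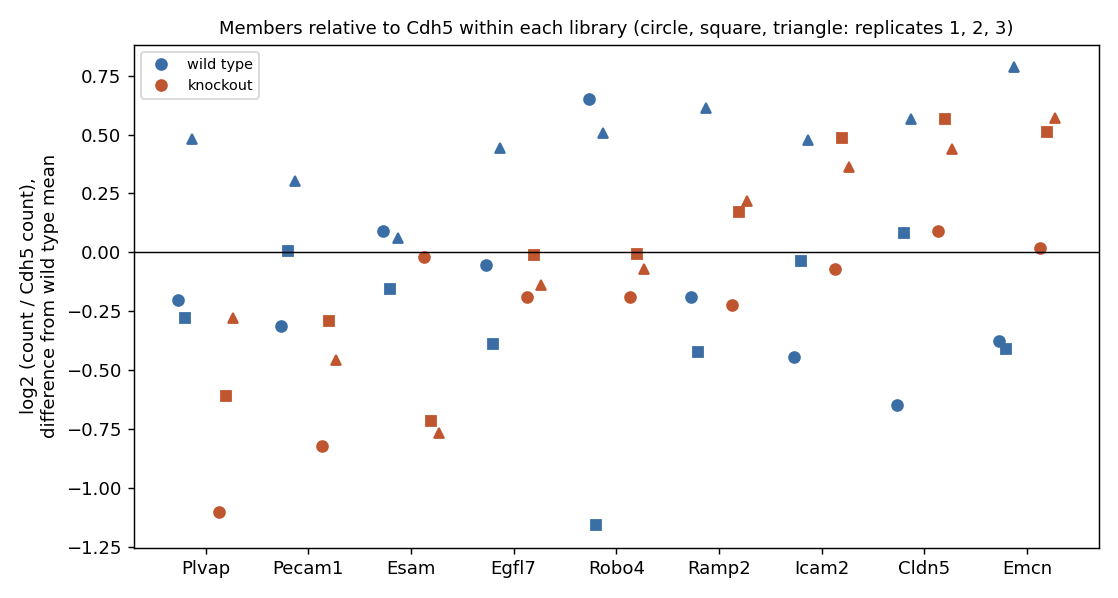
Count of each member per Cdh5 count in the same library, as log2 difference from the wild type mean, with wild type in blue, knockout in orange and a marker shape per replicate. The groups overlap for 8 of the 9 genes; for Plvap the knockout points lie below the wild type points.

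Other genes of the endothelial surface showed the same direction for the most part. Of 25 such genes, all tested, 20 were higher and 5 lower in the knockout by their fold change, with 12 whose groups did not overlap on the higher side and 2 on the lower, and a median of 0.75. None passed the threshold in either direction, while 13 higher and 1 lower had an unadjusted p under 0.05. Over all tested genes the shares were 12.1% and 9.39% for groups apart and 8.68% and 6.86% for the unadjusted p. This list too was chosen with earlier results of these data known. Cd34, a sialomucin of endothelium and progenitors, stood at 198 ± 36.8 CPM (wild type) and 420.4 ± 72.8 CPM (knockout), and Mcam, the adhesion molecule CD146, at 70.1 ± 15.95 and 133 ± 13.7 CPM. Another 3 genes, chosen after their values were seen, went otherwise. Kdr, the main VEGF receptor, stood at 47.4 ± 10.4 and 48.9 ± 4.31 CPM (log2 fold change 0.04), Flt1, its decoy relative, at 14.3 ± 5.43 and 12.5 ± 3.95 CPM (-0.19), and Procr, the endothelial protein C receptor, at 2810 ± 1020.1 and 802 ± 371 CPM (-1.81, adjusted p = 0.173). The summed level of the 25 genes, which Procr dominates, was 2636 to 5024 CPM (wild type) and 2455 to 2726 CPM (knockout).

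The partners of the members were read next, in lists of which no gene passed the threshold. Of 18 tested partners of cadherin and claudin junctions, 10 were higher and 8 lower (median 0.18). The smallest unadjusted p-values were those of Jam2, a junctional adhesion molecule, at 18.6 ± 6.42 and 34.4 ± 5.21 CPM and Tjp1, the scaffold ZO-1, at 49.9 ± 6.65 and 71.5 ± 5.84 CPM. In the adrenomedullin system 4 of 5 were higher (median 0.85). Calcrl, the receptor that Ramp2 pairs with, stood at 30.2 ± 8.86 and 56.2 ± 8.04 CPM, and Ackr3, a decoy receptor for the peptide, at 50.002 ± 8.98 and 93.7 ± 33.0 CPM. Adm, the gene of adrenomedullin itself, named after its values were seen, went the other way, at 547 ± 334 and 178 ± 82.4 CPM (-1.62, adjusted p = 0.255, groups overlapping). In the Slit and Robo system 2 were higher and 4 lower (median -1.40), with the netrin receptor gene Unc5b, which encodes a partner of Robo4, at 119.9 ± 21.7 and 188 ± 20.5 CPM and Slit2, a ligand of the roundabout family, at 49.7 ± 48.6 and 4.26 ± 6.41 CPM.

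Of 7 caveolar genes, whose membrane pits carry the product of Plvap, 6 were higher (median 0.35), with the coat gene Cavin1 at 871 ± 233 and 1743 ± 365 CPM and Cav2 at 11.2 ± 2.07 and 18.9 ± 4.33 CPM. Of 10 ligands and anchors of ICAM-2 and PECAM-1, 6 were higher and 4 lower (median 0.30). Msn, which encodes moesin and ties ICAM-2 to actin, stood at 246 ± 63.7 and 519.6 ± 127 CPM, and Itgb2, the beta chain of the leukocyte integrins that bind ICAM-2, at 3.37 ± 1.70 and 11.5 ± 1.65 CPM. Among the 4 lower were the anchor genes Ezr and Rdx, named after their values were seen. Ezr stood at 78.1 ± 25.5 and 46.9 ± 31.6 CPM and Rdx at 240 ± 34.2 and 173 ± 63.4 CPM, each with overlapping groups. Over the 46 distinct partner genes tested, 13 higher and 3 lower had an unadjusted p under 0.05, against 8.68% and 6.86% of all tested genes, so the lower count is near that share.

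Markers of other cells were read beside the members. Of 10 leukocyte markers 9 were higher in the knockout and 1 lower (median 1.27), with none past the threshold, and none was at 0 in any library. Their summed level was 312 to 723 CPM (wild type) and 526 to 673 CPM (knockout), and the one lower, Csf1r, named after its values were seen, stood at 299.955 ± 138 and 109.9 ± 49.0 CPM. Laptm5, a lysosomal protein of blood cells, stood at 73.2 ± 21.8 and 189 ± 47.5 CPM, and Ptprc, which encodes CD45, at 22.8 ± 6.79 and 54.4 ± 9.37 CPM. Since leukocytes also carry ICAM-2 and PECAM-1, these values stand beside those of Icam2 and Pecam1, and their part in the result was not tested. Megakaryocyte and platelet markers went the other way. All 5 that could be tested were lower (median -0.60), Gp6 was at 0 throughout, and the sum was 54.5 to 109.1 CPM (wild type) and 50.3 to 61.8 CPM (knockout), with Pf4, platelet factor 4, at 6.20 ± 3.78 and 2.14 ± 1.06 CPM and Ppbp at 1.52 ± 1.203 and 0.28 ± 0.181 CPM.

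Mural cells, which wrap vessels, were read through 10 markers, all lower in the knockout (median -1.39) with sums of 676, 67.2 and 165 CPM (wild type, in replicate order) and 66.5 to 74.5 CPM (knockout). Wild type replicate 1 carried much of this, and replicate 2 lay among the knockout libraries. Abcc9, a pericyte potassium channel subunit, stood at 17.7 ± 8.49 and 6.45 ± 1.29 CPM, and Cnn1, smooth muscle calponin, at 87.8, 1.46 and 2.85 CPM (wild type) and 0.627 to 1.78 CPM (knockout), with overlapping groups. Decidual markers split, with 6 of 12 higher and 6 lower (median 0.14). All 6 higher ones and 4 of the 6 lower ones had groups apart, against 12.1% and 9.39% of all tested genes. The 4 lower ones had larger log2 fold changes, from -2.15 (Il11ra2) to -3.70 (Prl3c1). Those of the 6 higher ones, named after their values were seen, were of the size seen for the members. They were Des, or desmin, at 1.34, Wnt4 at 1.27, Bmp2 at 1.19, the progesterone receptor gene Pgr at 1.05, Hoxa10 at 1.05 and Hoxa11 at 0.89. Des stood at 1197 ± 283 and 3027 ± 878 CPM. These 6 genes of uterine stroma thus stood higher in the same libraries as the endothelial members, while the other 6 decidual genes stood lower. Their part in the members' difference was not tested. Il11ra2, an interleukin-11 receptor chain a gene with near-identical copies whose count is uncertain for that reason, fell from 99.98 ± 17.2 to 22.5 ± 3.59 CPM (-2.15, edgeR adjusted p = 0.0313), the only gene of all the lists that passed. No gene at all was called lower with the replicate block, with 1 symbol per identical set, or when replicate 1 of the wild type, or replicate 2 or 3 of the knockout, was left out, so this call is lost in each of these. Trophoblast markers summed to 1418 to 5935 CPM (wild type) and to 3733, 52.7 and 146 CPM in knockout replicates 1, 2 and 3, with 9 of 10 lower, Prl3b1 at 51.8 ± 44.3 and 4.59 ± 7.77 CPM and Tpbpa at 138 ± 89.5 and 22.4 ± 36.7 CPM.

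Yolk sac endoderm markers summed to 431 to 684 CPM (wild type) and to 201, 25.3 and 38.3 CPM in knockout replicates 1, 2 and 3, all 10 lower (Trf at 98.97 ± 57.0 and 25.6 ± 8.86 CPM, Afp at 242 ± 88.5 and 28.1 ± 41.8 CPM). Primitive erythroid markers were likewise all lower, 9 of 9 (Alas2 at 93.9 ± 24.7 and 29.7 ± 7.88 CPM, Slc4a1 at 31.4 ± 27.1 and 2.09 ± 2.61 CPM). By their medians, though not for each gene, these lists separated knockout replicate 1 (-1.10 and -1.27) from replicates 2 and 3 (-4.63 and -4.37 for yolk sac, -4.01 and -3.96 for erythroid). The erythroid sum was 1450.3, 1311 and 825 CPM in knockout replicates 1, 2 and 3, a narrower spread. The member medians of the 3 knockout libraries lay within 0.24 of each other. The share of embryonic, yolk sac and maternal vessels in each library was not measured, and its part in the members' difference was not tested.

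**Figure D4:**
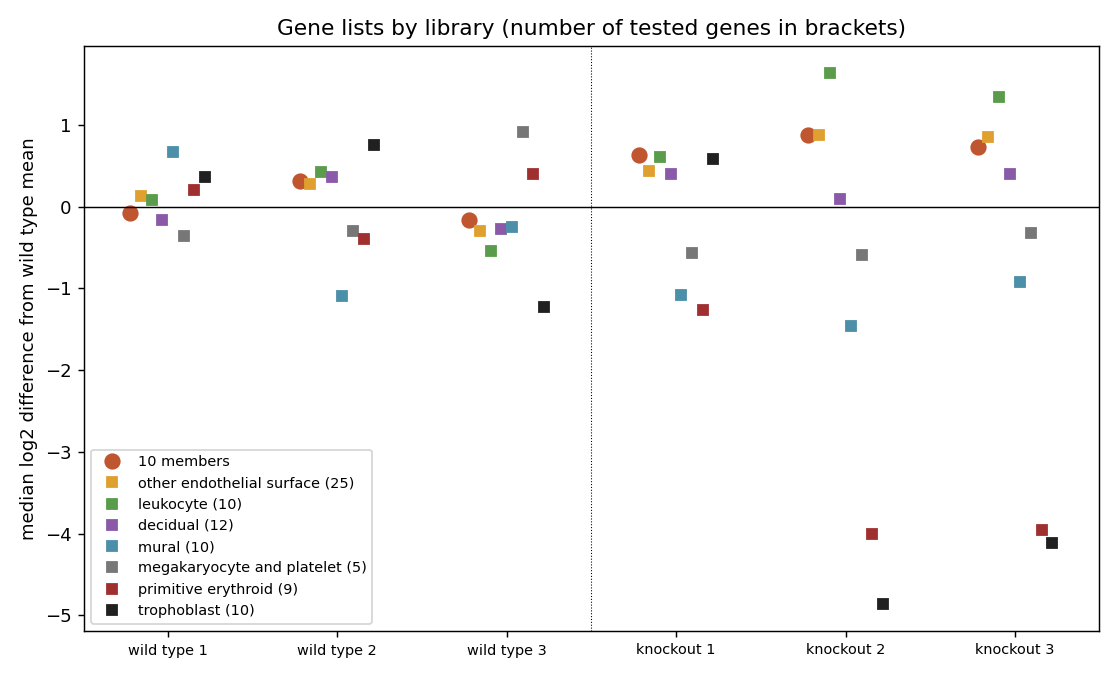
Median log2 difference from the wild type mean in each library for the 10 members and 7 marker lists, with the number of tested genes in brackets. The members lie at 0.64 to 0.88 in the knockout libraries, near the other endothelial genes, while trophoblast and erythroid lists lie below -3 in knockout replicates 2 and 3 only.

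The profile of the members was compared with every other tested gene of at least 5 CPM on average, 9533 in number (Gm, LOC and Rik symbols left out), by the root mean square difference between log2 profiles centred over the 6 libraries. The nearest 5 were Chmp2b (0.047), Tmem50a (0.0499), Chfr (0.0587), Vasn (0.0651) and Pitpnm1 (0.066). Chmp2b, a subunit of the membrane-cutting ESCRT-III complex, stood at 96.5, 113 and 75.8 CPM in wild type and at 135, 175 and 159.8 CPM in knockout libraries. Vasn, a surface protein of vascular smooth muscle that binds TGF-beta, stood at 55.3, 68.8 and 46.0 CPM and at 78.3, 110.6 and 102.4 CPM. Among the members Egfl7 lay nearest to the mean profile (0.084) and Robo4 farthest (0.45). Ranked among all tested genes by this difference, Egfl7 came at 15, Ramp2 at 129, Cdh5 at 907 and Robo4 at 5389. Many genes outside the list thus lay nearer to the mean profile than most members did, and the profile is not particular to them.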

How the data were processed

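Samples were labelled whole embryo at embryonic day 9.5, 3 wild type and 3 Lphn2 knockout. Lexogen QuantSeq libraries, which read 3′ ends, were made from 500 ng of Trizol-extracted RNA, per the labels' protocols. For each sample the authors deposited a table of raw counts by gene symbol. Per the submitters' processing notes, Bowtie2, edgeR and build mm10 were used. The sources used here give no versions, annotation, counting program or treatment of strand and shared reads.

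With edgeR 4.0.16, genes passing filterByExpr (minimum count 10) were scaled by TMM and tested by quasi-likelihood, knockout over wild type, no covariate. P-values were adjusted by Benjamini-Hochberg over all 13848 genes (threshold 0.05). SE is the fold change over the root of F. List deviations used log2(CPM + 0.5). Positions come from GENCODE M21 by symbol, promoters from RefSeq on GRCm38.p6. Nothing says that samples are separate embryos, so the spread behind each p-value is only that of these samples and may be technical. No pair agreed within sampling noise (chi-square over degrees of freedom 23.02 to 296). The description codes start with 32 (wild type replicate 1) or 45 (all others), with no meaning stated, so the comparison within the second code is the one without that library. Same-numbered samples were not treated as pairs in the main test. The test was run on simulated counts with known changes of log2 size 2 (58.6% of 99 recovered over 13712 genes at the common dispersion of these libraries) and 4 (100% of 99). That run had 6 false calls, and a run at a dispersion of 0.05 had 10. Changes of the members' size, at most 1.18, were not simulated, so these rates do not cover them.

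Members and lists were chosen with earlier results of these data known. The rule names all members, Adgrl2, up to 3 passing genes per list or else the 2 with the smallest p, and the 5 nearest profiles. Of the listed symbols, Nectin2 and Ahsp matched no row, and older symbols served for Cavin1, Cavin2, Cavin3, Nectin3 and Afdn. Alternatives used other scaling, filters, DESeq2 1.42.0, limma-voom (limma 3.58.1), the replicate block, divided or deduplicated counts, and fewer libraries. R 4.3.3 and Python 3.11.15 (matplotlib 3.10.9) were used.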

Additional observations from a re-analysis of the deposited data

How the results depend on the processing

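Over 17 alternatives, all but 3 of 170 fold changes of single members kept their direction, and 7 newly passed the threshold, 5 with DESeq2 and 2 without knockout replicate 1. The reversed values were Plvap at -0.0047 without knockout replicate 3 (to 0.37 without replicate 1), and Plvap at -0.33 and Pecam1 at -0.0903 with knockout replicate 1 alone against wild type; fewer libraries entered in each. The count of members higher with groups apart was 6 in most settings and 7 without wild type replicate 1 or 2 or with knockout replicate 1 alone, where 1 member was lower. Groups of fewer libraries lie apart more easily, and the share over all genes is not given for the settings without wild type replicate 1 or 2. The count of 7 there is therefore not read as more than 6. Members called higher were 5 with DESeq2 and ranged from 0 to 2 when 1 library was left out, the 2 being without knockout replicate 1. Over all genes, DESeq2 called 470 higher and 387 lower, where edgeR called 0 higher (1202 at an unadjusted p under 0.05) and 7 lower. Leaving out 1 library gave 0 to 252 higher and 0 to 466 lower, the most without knockout replicate 1. The lower count was 0 with the replicate block, with 1 symbol per identical set and with knockout replicate 1 alone. The cause of the DESeq2 difference was not tested. Whether the replicate numbers pair the samples was not settled. Deviations of same-numbered samples correlated at 0.16, -0.042 and 0.072, and not every sample correlated best with its own number. The block called 0 members, as did the main fit, so that count does not bear on pairing. Robo4, at 44 to 196 counts, is the member most limited by depth.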

Other observations

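Genes of vessel identity gave no gene past the threshold (edgeR, adjusted p over all genes), and their lists differed in direction. Of 9 arterial genes 4 were higher and 5 lower in the knockout (median log2 fold change -0.01) with no gene whose groups were apart. Sox17, an arterial transcription factor that is also expressed in endoderm, stood at 63.2 ± 25.3 CPM (wild type) and 108 ± 18.3 CPM (knockout), and Bmx, a kinase of arterial endothelium, at 0.301 ± 0.326 and 1.01 ± 0.695 CPM. Bmx held only 74 counts over the 6 libraries. The 5 lower ones, named after their values were seen, were Hey2 (-0.83), Jag1 (-0.56), Gja4 (-0.08), Hey1 (-0.06) and Efnb2 (-0.01). Of 4 venous genes 3 were higher, with groups apart, and 1 lower, also with groups apart. Over all tested genes 12.1% had groups apart with the knockout above and 9.39% with it below. These lists are short, and no difference between them was tested. Nr2f2, the venous regulator COUP-TFII that the uterine stroma also expresses, stood at 354 ± 19.1 and 546 ± 38.6 CPM (0.62, adjusted p = 0.176), and Aplnr, the apelin receptor, at 6.31 ± 0.66 and 14.2 ± 5.29 CPM. The lower one, Nrp2, named after its values were seen, stood at 79.3 ± 23.2 and 36.96 ± 12.5 CPM (-1.10). The 3 lymphatic genes that could be tested were lower (median -0.49), with Pdpn, podoplanin, at 627 ± 142 and 372 ± 243 CPM and Lyve1, a hyaluronan receptor, at 3.93 ± 1.12 and 3.12 ± 1.62 CPM, while Prox1, the defining regulator of that lineage, was too low to be tested. Of the adhesion molecules that inflamed endothelium displays, Icam1 stood at 13.4 ± 7.51 and 24.1 ± 7.42 CPM and Selp, P-selectin, at 0.956 ± 0.355 and 1.91 ± 0.46 CPM, with 2 of 3 tested genes higher, and Sele was too low to be tested. Selp held only 190 counts over the 6 libraries. The lower gene, Vcam1, named after its values were seen, stood at 16.5 ± 17.5 and 9.58 ± 1.18 CPM (-0.79), with overlapping groups.

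Markers of the embryo's own tissues had lower means in the knockout libraries, with no gene past the threshold. Wild type replicate 3 carried much of the wild type means. The neural tube genes summed to 88.9, 58.0 and 434 CPM (wild type, in replicate order) and to 51.6, 10.8 and 12.1 CPM (knockout), and the heart muscle genes to 91.8, 40.8 and 371 CPM and to 22.3, 7.80 and 17.8 CPM, so that the neural sum of knockout replicate 1 lay near that of wild type replicate 2. All 4 tested neural tube genes had a lower mean (Pax6 at 13.4 ± 6.99 and 2.76 ± 0.532 CPM, Sox2 at 5.86 ± 5.89 and 0.229 ± 0.277 CPM), as were all 5 heart muscle genes (Myl4 at 6.17 ± 4.595 and 0.809 ± 0.469 CPM, Actc1 at 10.6, 3.72 and 92.2 CPM and at 1.80, 0.867 and 0.998 CPM) and all 4 somite genes. Of the last, Pax9 was read at 0.738 ± 0.311 CPM in wild type and at 0 counts in all 3 knockout libraries, and Meox2 at 1.41 ± 2.00 and 0.37 ± 0.324 CPM. Whether these values are linked to those of the endothelial members was not tested.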
